A study of Mus musculus with 28 samples.

Results

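The dorsal hippocampus of mice that had been fear conditioned and given C108 was compared with that of mice left without conditioning or treatment. The comparison takes every library whose title names C108 (n = 5) and every library whose title names Basal (n = 4), 9 of the 28 libraries of the study, and describes them across 16735 expressed genes. The study measured mRNA-enriched total RNA of the dissected dorsal hippocampus of male C57Bl6 mice by strand-specific sequencing. C108 mice underwent auditory fear conditioning, which pairs a tone with a foot shock, and received a compound known here only by that code name. Vehicle (n = 4), Cort (n = 5), RU486 (n = 5) and C118 (n = 5) mice were conditioned too and differ from C108 mice in the treatment. Basal mice had neither conditioning nor treatment. The sources used here give no ages, doses or times of treatment and dissection. Between C108 and Basal mice, conditioning, handling and the compound cannot be told apart. The labels do not say that each library is a separate mouse, so p-values measure the spread between these libraries, which may in part be technical. Libraries are named below by their group and the number in their title, and always follow the order C108 8, 21, 26, 34 and 39, and Basal 1, 9, 14 and 27.

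A stressful event such as conditioning releases corticosterone, the main glucocorticoid of mice. It binds 2 receptors in hippocampal cells, the glucocorticoid receptor encoded by Nr3c1 and the mineralocorticoid receptor encoded by Nr3c2. The bound glucocorticoid receptor enters the nucleus and binds DNA at short palindromic sites, and it raises a set of genes shared by many tissues, among them Fkbp5, Tsc22d3 and Sgk1. RU486 is an antagonist of that receptor.

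Genes are called where the adjusted p of edgeR's quasi-likelihood test was under 0.05, and log2 fold changes are C108 minus Basal, with a standard error. In C108 against Basal, 1010 of 16735 genes were called, or 6.04%. Of these, 467 genes (2.79%) were higher in C108 libraries, with a median log2 fold change of 0.38, and 543 (3.24%) were lower, with a median of -0.67. The rises were mostly small: 35 of the higher genes and 121 of the lower genes differed by at least 2-fold. The C108 and Basal libraries did not overlap for 716 of the called genes (70.9%), against 1564 of all tested genes (9.35%). The median log2 fold change of all tested genes was 0.01. The libraries held 18618773 to 20154231 gene counts in C108 and 18527682 to 20055095 in Basal. Detected genes numbered 21649 to 22318 in C108 libraries and 22319 to 22717 in Basal libraries, without overlap. The mean of the numbers in the titles was 25.6 in C108 and 12.8 in Basal. Reads in no annotated gene made up 5.07% to 7.44% in C108 libraries and 6.29% to 7.43% in Basal libraries. All 14 CA1, 15 CA3 and CA2 and 17 dentate gyrus markers on the lists used averaged at least 1 CPM (counts scaled to a common library size of 10 to the power 6) in C108 libraries. A call on 1 gene often rested on 1 library: 245 called genes (115 higher, 130 lower) kept their call without each of the 9 libraries in turn, and 292 genes were called without Basal 1, 357 without Basal 14, 598 without C108 26 and 505 without C108 39. Of the 20 alternative fits tried, those that ended most calls added marker scores of neighbouring tissue or left out 2 libraries: 166 genes were called where the fit held marker scores of thalamus and neocortex as covariates (the thalamus and neocortex fit), 200 where it held endothelial and meningeal scores (the endothelial and meningeal fit) and 139 without both C108 39 and Basal 1. Each score averages its own markers, so a fit that holds it shrinks the changes of those markers by construction. Neither the thalamus nor the neocortex score overlapped between C108 and Basal libraries. The thalamus and neocortex fit therefore cannot fully separate these scores from the group. For each gene described that lost its call, the alternative with the highest adjusted p is given.

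Target genes of the glucocorticoid receptor rose together. Of 41 tested members of the list, 24 rose and 1 fell, 16 did not pass the test, and the median log2 fold change was 0.45. That is 61% called, against 6.04% of all genes tested. The gene that fell was Nr3c1, which encodes the receptor. The list was drawn up with results of these data known, and its score (the mean over members of log2 CPM centred on all 28 libraries) was -0.20 to 0.25 in C108 libraries, against -0.77 to -0.35 in Basal libraries. Without Basal 1, or without Basal 14, 16 members were called, and 15 kept their call without each library in turn. The count was 14 in the thalamus and neocortex fit, 20 in the endothelial and meningeal fit and 13 without both C108 39 and Basal 1.

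The promoter windows of RefSeq (250 bases before to 50 after each gene's start, build GRCm38.p6) were searched on both strands for the half-sites GNACA and TGTNC with any 3 bases between them, the core of a glucocorticoid response element, where N is any base. The search found them in 145 of 27025 genes with a window (0.537%), in 53 of 11798 tested genes (0.449%) and in 6 of 381 genes called higher (1.57%). They stood in 1 of 382 genes called lower (0.262%). Among the receptor targets with a window they stood in 5 of 36 (13.9%). Of the targets called higher, 4 of 23 with a window had a match (17.4%), and the others, Fkbp5 among them, had none there. Those 4 are shown here with the matched letters in capitals. The match outside them was in Fam107a, which was not called. Whether the rises go with the motif was not tested. Sgk1 encodes a kinase that controls ion channels and transporters, and its match lies at chr10:21993678-21993738 on the + strand, 188 bases before one of its annotated starts. Mt1 encodes a metal-binding metallothionein, with the match at chr8:94178971-94179031 on the + strand, 94 bases before the start. Txnip encodes a brake on thioredoxin and glucose uptake, with the match at chr3:96557761-96557821 on the + strand, 172 bases before the start. Map3k6 encodes a stress-activated kinase, with the match at chr4:133240613-133240673 on the + strand, 181 bases before the start. The coordinates are those of the printed bases, with 24 bases on each side of the match. A match describes the letters only, and binding was not measured.
Sgk1: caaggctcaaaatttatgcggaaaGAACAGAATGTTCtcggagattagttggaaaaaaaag
Mt1: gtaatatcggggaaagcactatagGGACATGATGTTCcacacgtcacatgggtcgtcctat
Txnip: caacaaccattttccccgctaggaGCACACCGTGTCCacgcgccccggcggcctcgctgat
Map3k6: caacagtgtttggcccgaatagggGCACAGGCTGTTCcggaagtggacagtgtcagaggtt

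The 4 genes with these windows rose, and each of these calls was lost without some library. Sgk1 had 139, 191, 105, 100.5 and 131 CPM in C108 libraries, against 55.5, 130.1, 58.3 and 49.6 CPM in Basal libraries. Basal 9 stood at the level of the C108 libraries while the other 3 Basal libraries were lower than every C108 library, and the log2 fold change was 0.86 ± 0.23 (adjusted p = 0.0233). Its adjusted p was 0.112 without Basal 1, 0.106 without Basal 14, 0.078 without Basal 27 and 0.0581 without C108 21. Mt1 had 218, 261, 203, 183 and 147 CPM in C108 libraries, against 121, 151, 121 and 112 CPM in Basal libraries, with a log2 fold change of 0.68 ± 0.16 (adjusted p = 0.0129). Only C108 39 and Basal 9 overlapped. The adjusted p of Mt1 was 0.0589 without Basal 1 and 0.0595 without Basal 14. Whether any counts were exchanged between Mt1 and its related neighbour Mt2 was not tested. Txnip (21.9 to 39.6 CPM in C108 libraries, against 13.7 to 20.4 CPM in Basal libraries; log2 fold change 0.72 ± 0.21, adjusted p = 0.0383) and Map3k6 (2.32 to 5.42 CPM in C108 libraries, against 1.62 to 1.97 CPM in Basal libraries; log2 fold change 0.89 ± 0.23, adjusted p = 0.0213) did not overlap between the groups. The adjusted p of Txnip was 0.0891 without Basal 1, 0.122 without Basal 14, 0.107 without Basal 27, 0.0633 without C108 8 and 0.0929 without C108 21, and that of Map3k6 was 0.0723 without Basal 1, 0.0814 without Basal 14, 0.0531 without Basal 27 and 0.0559 without C108 8. Sgk1 was not called under 9 of the 20 alternatives (log2 fold change 0.76 and adjusted p = 0.193 without both C108 39 and Basal 1), Mt1 under 3 (log2 fold change 0.58 and adjusted p = 0.156 in the thalamus and neocortex fit), Txnip under 9 (log2 fold change 0.71 and adjusted p = 0.174 in the thalamus and neocortex fit) and Map3k6 under 7 (log2 fold change 0.93 and adjusted p = 0.11 without both C108 39 and Basal 1). Mt1, Txnip and Map3k6 are described because of their windows, after their values were seen.

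Fkbp5, the co-chaperone that lowers the receptor's affinity for its hormone, had 133, 120.3, 134, 119 and 150.3 CPM in C108 libraries, against 61.02, 80.6, 59.9 and 68.4 CPM in Basal libraries. Every C108 library was above every Basal library, and the log2 fold change was 0.96 ± 0.10 (adjusted p = 7.77e-07). Fkbp5 lies at chr17:28399094-28517527 (GRCm38). Tsc22d3, the gene of the leucine zipper protein GILZ that dampens inflammation, had 103, 111, 87.9, 74.7 and 85.01 CPM in C108 libraries, against 39.2, 63.2, 42.1 and 38.1 CPM in Basal libraries (log2 fold change 1.02 ± 0.16, adjusted p = 0.00054). The groups did not overlap, and Basal 9 was the highest Basal library, as it was for Sgk1. Plin4, a coat protein of lipid droplets, showed the second-largest fitted rise of the list, with 10.7, 14.5, 9.28, 7.56 and 8.54 CPM in C108 libraries, against 0.921, 2.14, 1.27 and 0.531 CPM in Basal libraries and a log2 fold change of 3.07 ± 0.37 (adjusted p = 3.2e-05). All C108 libraries were well above all Basal libraries. Hif3a, which encodes an inhibitory hypoxia-inducible factor, had 14.9, 14.2, 7.94, 8.62 and 8.03 CPM in C108 libraries, against 1.43, 5.26, 2.03 and 1.35 CPM in Basal libraries, with a log2 fold change of 2.10 ± 0.30 (adjusted p = 0.000159). C108 8 and 21 were the highest for Hif3a, and for several other targets.

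Cdkn1a, the cyclin-dependent kinase inhibitor p21, varied widely among the C108 libraries. It had 38.9, 33.8, 17.5, 8.88 and 25.4 CPM in C108 libraries, against 6.71, 11.7, 5.99 and 5.36 CPM in Basal libraries. C108 34 was below Basal 9, so the groups overlapped, and the log2 fold change was 1.75 ± 0.32 (adjusted p = 0.00243). Errfi1, an inhibitor of ErbB receptors, had 82.8, 92.1, 87.8, 78.4 and 97.3 CPM in C108 libraries, against 47.7, 70.3, 46.05 and 47.4 CPM in Basal libraries, without overlap (log2 fold change 0.73 ± 0.12, adjusted p = 0.000542). Mertk, a receptor with which astrocytes and microglia take up debris and synapses, had 42.2, 49.8, 42.2, 43.9 and 36.8 CPM in C108 libraries, against 24.9, 28.8, 22.4 and 25.8 CPM in Basal libraries, also without overlap (log2 fold change 0.76 ± 0.13, adjusted p = 0.00116). Gjb6, the astrocyte connexin 30, had 60.1 ± 10.5 CPM in C108 libraries and 35.4 ± 5.46 CPM in Basal libraries, a log2 fold change of 0.76 ± 0.16 (adjusted p = 0.00532). Sesn1, a stress-responsive inhibitor of mTORC1, had 93.3 ± 6.70 CPM in C108 libraries and 71.9 ± 4.34 CPM in Basal libraries (log2 fold change 0.38 ± 0.08, adjusted p = 0.00377). Arrdc2, an arrestin-domain protein, had 23.8 ± 6.84 CPM in C108 libraries and 10.4 ± 3.67 CPM in Basal libraries (log2 fold change 1.20 ± 0.21, adjusted p = 0.0012), with C108 34 just below Basal 9. All of these kept their call without each library in turn, and Sesn1 was not called under 3 of the 20 alternatives (log2 fold change 0.28 and adjusted p = 0.111 in the thalamus and neocortex fit).

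Among the transcription factors of the list, Klf9 had 247 to 282 CPM in C108 libraries, against 182 to 219 CPM in Basal libraries (log2 fold change 0.41 ± 0.09, adjusted p = 0.00816). Klf15 had 20.7 to 31.9 CPM in C108 libraries, against 13.1 to 20.2 CPM in Basal libraries (log2 fold change 0.66 ± 0.15, adjusted p = 0.0081), and both were without overlap. Zbtb16, which encodes the zinc finger protein PLZF, had 59.97 to 78.3 CPM in C108 libraries, against 43 to 58.9 CPM in Basal libraries (log2 fold change 0.45 ± 0.10, adjusted p = 0.00996), and its adjusted p without Basal 14 was 0.0677. Sult1a1, a sulfotransferase (5.89 to 10.8 CPM in C108 libraries, against 2.94 to 5.81 CPM in Basal libraries; log2 fold change 0.86 ± 0.19), and Arl4d, a small GTPase (20.04 to 39.7 CPM in C108 libraries, against 10.8 to 21.6 CPM in Basal libraries; log2 fold change 1.05 ± 0.19), rose as well. Klf15, Sult1a1 and Arl4d were singled out after their values were seen. Klf9 was not called under 4 of the 20 alternatives (log2 fold change 0.26 and adjusted p = 0.184 in the endothelial and meningeal fit) and Zbtb16 under 4 (log2 fold change 0.42 and adjusted p = 0.101 without both C108 39 and Basal 1).

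Nr3c1 itself was lower. It had 81.5, 94.9, 89.5, 84.5 and 79.3 CPM in C108 libraries, against 129, 96.7, 123 and 122 CPM in Basal libraries, with a log2 fold change of -0.46 ± 0.09 (adjusted p = 0.00273). The groups did not overlap, though Basal 9 came close to the C108 libraries. Nr3c1 was not called under 2 of the 20 alternatives (log2 fold change -0.30 and adjusted p = 0.0945 in the endothelial and meningeal fit). Nr3c2 had 289 to 373 CPM in C108 libraries, against 356 to 384 CPM in Basal libraries and did not pass (log2 fold change -0.17 ± 0.13, adjusted p = 0.459). Per1, a clock gene that glucocorticoids also act on, had 60.1 to 66.8 CPM in C108 libraries, against 51.2 to 60.5 CPM in Basal libraries and did not pass either (log2 fold change 0.23 ± 0.12, adjusted p = 0.257).

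**Figure D1:**
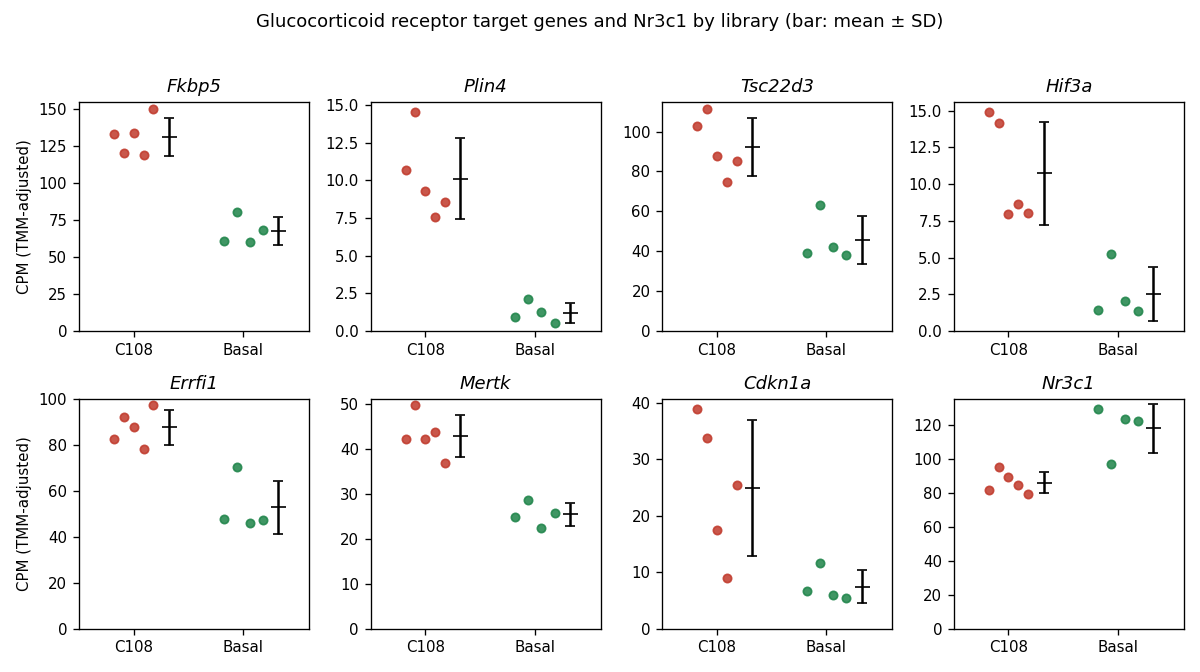
Each panel plots CPM on TMM-adjusted library sizes for 1 gene, with a point for each of the 5 C108 and 4 Basal libraries and a bar for the mean ± SD. C108 libraries lie above Basal libraries for 7 genes, with an overlap in Cdkn1a, and below them for Nr3c1.

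Of 23 tested genes of lipid droplets and fatty acids, 3 rose (Plin4, Dgat2 and Pnpla2), 1 fell (17.4% called, against 6.04% of all genes), and the median log2 fold change was -0.02. The count was 2 without Basal 14, 1 in the thalamus and neocortex fit, 2 in the endothelial and meningeal fit and 1 without both C108 39 and Basal 1. Plin4 is also counted among the receptor targets. Dgat2, which makes triglyceride, had 209, 169.9, 167, 165 and 223 CPM in C108 libraries, against 104, 148, 101 and 107.8 CPM in Basal libraries, without overlap (log2 fold change 0.70 ± 0.14, adjusted p = 0.00456). Pnpla2, the triglyceride lipase ATGL, had 16.4 to 27.3 CPM in C108 libraries, against 11.5 to 16.4 CPM in Basal libraries (log2 fold change 0.59 ± 0.15, adjusted p = 0.0164, and 0.0983 without Basal 14). Mfsd2a, the transporter that carries lysophosphatidylcholine with docosahexaenoic acid across the blood-brain barrier, had 29.3, 24.4, 21.4, 17.9 and 21.4 CPM in C108 libraries, against 12.8, 17.1, 11.4 and 12.2 CPM in Basal libraries. It rose without overlap (log2 fold change 0.77 ± 0.16, adjusted p = 0.00421), although it stands on the endothelial marker list, whose other called members fell. Dgat2 was not called under 3 of the 20 alternatives (log2 fold change 0.54 and adjusted p = 0.104 in the thalamus and neocortex fit) and Pnpla2 under 3 (log2 fold change 0.50 and adjusted p = 0.0983 without Basal 14).

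Of 29 tested genes of cholesterol synthesis and uptake, none rose and 5 fell (17.2%, against 6.04% of all genes called and 3.24% called lower). The count was 1 without Basal 1, 2 without Basal 14 or C108 39, 3 without C108 26 or C108 34, 1 in the thalamus and neocortex fit, 1 in the endothelial and meningeal fit and 1 without both C108 39 and Basal 1. Insig1, which holds the sterol sensor in the endoplasmic reticulum, had 49.7, 53.6, 43.7, 43.7 and 47.7 CPM in C108 libraries, against 63.2, 66.7, 58.7 and 55.5 CPM in Basal libraries. Every C108 library was below every Basal library, and the log2 fold change was -0.36 ± 0.08 (adjusted p = 0.0104, and 0.0513 without Basal 1). Insig1 was not called under 5 of the 20 alternatives (log2 fold change -0.30 and adjusted p = 0.145 in the thalamus and neocortex fit).

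Enzymes and other metabolic genes outside these lists also rose, and they were chosen after their values were seen, except Ada. Gpt2, the mitochondrial alanine aminotransferase, had 102, 123, 119, 115 and 107 CPM in C108 libraries, against 69.9, 83.7, 62.04 and 72.3 CPM in Basal libraries (log2 fold change 0.65 ± 0.09, adjusted p = 6.85e-05). Ppp1r3g, a subunit that directs protein phosphatase 1 to glycogen, had 5.62 to 9.80 CPM in C108 libraries, against 3.48 to 4.60 CPM in Basal libraries (log2 fold change 0.97 ± 0.18, adjusted p = 0.00208). Adipor2, a receptor for adiponectin, had 82.8 to 124 CPM in C108 libraries, against 59.2 to 82.4 CPM in Basal libraries (log2 fold change 0.54 ± 0.11, adjusted p = 0.004). None of these overlapped between the groups. In one-carbon metabolism, Mthfd2 had 9.54 to 13.4 CPM in C108 libraries, against 5.89 to 7.78 CPM in Basal libraries (log2 fold change 0.84 ± 0.14, adjusted p = 0.000973) and Mtrr, the reductase that reactivates methionine synthase, had 22.7 to 27.4 CPM in C108 libraries, against 13.3 to 21.3 CPM in Basal libraries (log2 fold change 0.51 ± 0.09, adjusted p = 0.00114). Ada, adenosine deaminase, was among the 15 largest rises, with 2.52, 2.68, 1.75, 1.62 and 2.90 CPM in C108 libraries, against 0.154, 0.877, 0.457 and 0.289 CPM in Basal libraries and a log2 fold change of 2.37 ± 0.37 (adjusted p = 0.000367). All C108 libraries were above all Basal libraries for Ada.

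Of 29 tested genes that restrain insulin and mTOR signalling through FoxO factors and related proteins, 4 rose and 2 fell (20.7% called, against 6.04% of all genes). The count was 3 without Basal 1, 2 without Basal 14, 0 in the thalamus and neocortex fit, 1 in the endothelial and meningeal fit and 0 without both C108 39 and Basal 1. Sesn1 and Ddit4, among the 4 that rose, are also counted among the receptor targets. Foxo3 had 90.8 to 101 CPM in C108 libraries, against 68.5 to 86.8 CPM in Basal libraries (log2 fold change 0.29 ± 0.07, adjusted p = 0.0179, and 0.116 without Basal 14). Ddit4l, an inhibitor of mTORC1, fell with 2.30, 3.28, 2.94, 4.06 and 1.98 CPM in C108 libraries, against 9.21, 6.19, 9.09 and 8.01 CPM in Basal libraries (log2 fold change -1.48 ± 0.33, adjusted p = 0.00893). Every C108 library was below every Basal library. Foxo3 was not called under 4 of the 20 alternatives (log2 fold change 0.23 and adjusted p = 0.116 without Basal 14) and Ddit4l under 4 (log2 fold change -0.78 and adjusted p = 0.264 in the thalamus and neocortex fit).

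The gene with the smallest p of all was an adhesion molecule. Cdh10, a cadherin of neurons, had 23.6, 22.99, 24.6, 27.1 and 29.1 CPM in C108 libraries, against 51.5, 49.4, 49.6 and 48.97 CPM in Basal libraries. The Basal libraries were nearly level and each was above every C108 library, and the log2 fold change was -0.97 ± 0.08 (adjusted p = 4.15e-08). Cdh10 lies at chr15:18818947-19014236 (GRCm38). The cadherins Cdh9 (28.2 to 37.4 CPM in C108 libraries, against 45.9 to 53.3 CPM in Basal libraries; log2 fold change -0.60 ± 0.09) and Cdh11 (58.6 to 75.2 CPM in C108 libraries, against 84.8 to 111 CPM in Basal libraries; log2 fold change -0.60 ± 0.09) fell too, with adjusted p of 0.000249 for Cdh9 and 0.000331 for Cdh11. So did Sema6d, a transmembrane semaphorin of axon guidance (61.6 to 69.2 CPM in C108 libraries, against 94.5 to 119 CPM in Basal libraries; log2 fold change -0.63 ± 0.09, adjusted p = 0.000168), and Slitrk2, a synaptic adhesion protein (23.2 to 31.03 CPM in C108 libraries, against 38.4 to 47.2 CPM in Basal libraries; log2 fold change -0.56 ± 0.09, adjusted p = 0.00065). Apart from Cdh10, these were singled out after their values were seen. None of the 5 overlapped between the groups, and all kept their call without each library in turn.

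Of 34 tested ErbB and Wnt genes, 1 rose and 6 fell (20.6% called, against 6.04% of all genes), with a median log2 fold change of -0.18. The count was 3 without Basal 1, 4 without Basal 14, Basal 27, C108 26 or C108 39, 3 in the thalamus and neocortex fit, 3 in the endothelial and meningeal fit and 3 without both C108 39 and Basal 1. Erbb3, a neuregulin receptor of oligodendrocytes among other cells, had 3.56, 6.40, 5.67, 4.41 and 3.56 CPM in C108 libraries, against 16.6, 10.7, 14.9 and 17.8 CPM in Basal libraries, a log2 fold change of -1.67 ± 0.23 (adjusted p = 6.9e-05). Wnt9a, a Wnt ligand, had 2.68, 2.41, 2.37, 3.35 and 1.68 CPM in C108 libraries, against 16.3, 4.55, 15.99 and 10.8 CPM in Basal libraries, a log2 fold change of -2.25 ± 0.29 (adjusted p = 5.34e-05). Neither gene overlapped between the groups, and for both of them Basal 9 was the lowest Basal library. The member that rose was Fzd2, a Wnt receptor, with 9.94 to 16.4 CPM in C108 libraries, against 4.34 to 9.92 CPM in Basal libraries (log2 fold change 0.93 ± 0.20, adjusted p = 0.00612). Lrig1, which marks ErbB receptors for degradation, rose with 33.1, 33.9, 35.6, 30.2 and 32.1 CPM in C108 libraries, against 23.6, 24.1, 20.3 and 21.4 CPM in Basal libraries (log2 fold change 0.56 ± 0.07, adjusted p = 4.84e-05). With Errfi1, it makes a pair of ErbB inhibitors that rose without overlap.

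Downstream of receptor tyrosine kinases, 22 genes of MAP kinase feedback were tested, of which 2 rose and 4 fell (27.3% called, against 6.04% of all genes). The count was 3 without Basal 14, 2 in the thalamus and neocortex fit, 2 in the endothelial and meningeal fit and 2 without both C108 39 and Basal 1. Errfi1, 1 of the 2 that rose, is also counted among the receptor targets. Dusp5, a nuclear phosphatase of ERK, rose with 28.2, 34.4, 38.6, 34.3 and 33.1 CPM in C108 libraries, against 19.1, 22.4, 14.4 and 15.7 CPM in Basal libraries (log2 fold change 0.91 ± 0.20, adjusted p = 0.00861). Rasa1, a GTPase-activating protein of Ras, fell with 69.5 to 77.2 CPM in C108 libraries, against 89.01 to 101 CPM in Basal libraries (log2 fold change -0.39 ± 0.07, adjusted p = 0.00114). Fgfr2, a receptor for fibroblast growth factors, had 29.7, 40.6, 32.1, 30.4 and 25.7 CPM in C108 libraries, against 70.5, 52.8, 62.2 and 58.4 CPM in Basal libraries (log2 fold change -0.94 ± 0.15, adjusted p = 0.00065). Gab1, a docking protein of such receptors, had 15.6 to 23.6 CPM in C108 libraries, against 28.3 to 36.9 CPM in Basal libraries (log2 fold change -0.80 ± 0.14, adjusted p = 0.000935), and Rspo3, a secreted amplifier of Wnt signalling, had 5.14 to 5.93 CPM in C108 libraries, against 8.24 to 10.8 CPM in Basal libraries (log2 fold change -0.81 ± 0.15, adjusted p = 0.00183). Fgfr2, Gab1 and Rspo3 were picked after their values were seen. All 5 kept their call without each library, and none overlapped between the groups. Dusp5 was not called under 4 of the 20 alternatives (log2 fold change 0.71 and adjusted p = 0.155 in the thalamus and neocortex fit). In the endothelial and meningeal fit the log2 fold change was -0.60 for Fgfr2 and -0.53 for Gab1, both still called.

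**Figure D2:**
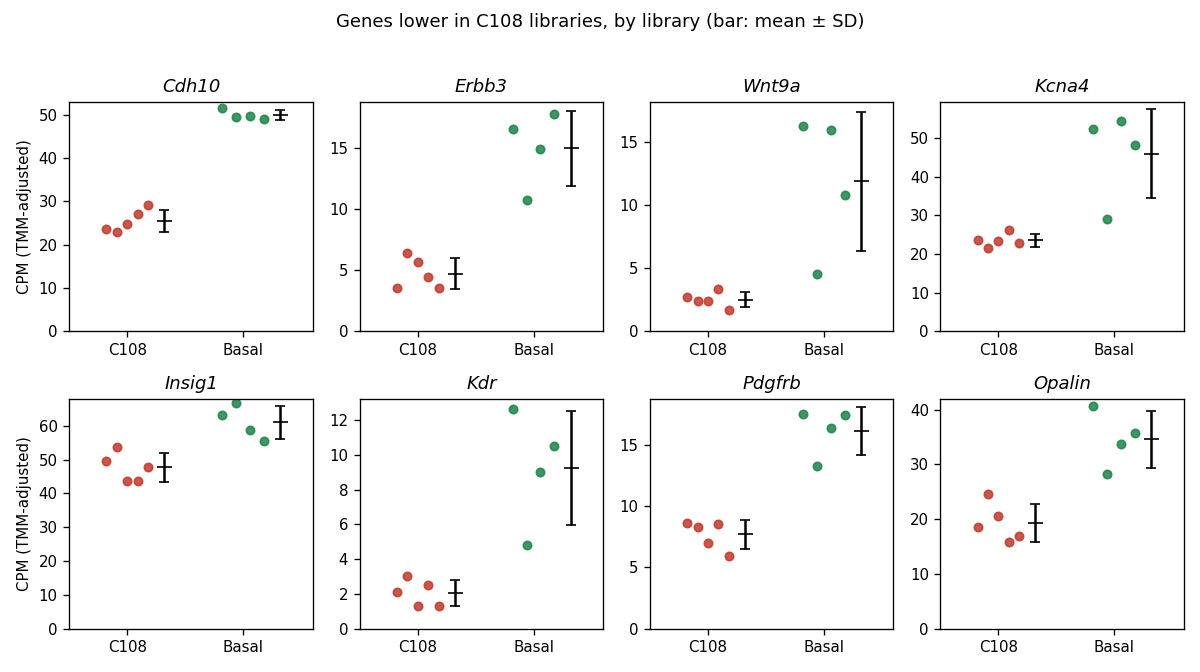
Each panel plots CPM on TMM-adjusted library sizes for 1 gene that was lower in C108 libraries, with a point for each of the 5 C108 and 4 Basal libraries and a bar for the mean ± SD. In all 8 panels every C108 library lies below every Basal library, and Basal 9 is the lowest Basal library for Erbb3, Wnt9a, Kcna4, Kdr, Pdgfrb and Opalin.

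Potassium channel genes fell where they changed. Of 60 tested genes for channels and their subunits, none rose and 7 fell (11.7%, against 6.04% of all genes called and 3.24% called lower), with a median log2 fold change of -0.14. The count was 4 without Basal 1, Basal 14, Basal 27 or C108 21, 2 in the thalamus and neocortex fit, 3 in the endothelial and meningeal fit and 4 without both C108 39 and Basal 1. Kcna4, the A-type channel Kv1.4, had 23.7, 21.7, 23.4, 26.1 and 22.8 CPM in C108 libraries, against 52.4, 28.99, 54.4 and 48.4 CPM in Basal libraries. Basal 9 was the lowest Basal library but above all C108 libraries, and the log2 fold change was -0.97 ± 0.14 (adjusted p = 8.63e-05). Kcnf1, a modulatory subunit, had 34.3, 35.7, 41.7, 44.5 and 46.2 CPM in C108 libraries, against 68.03, 60.7, 79.9 and 85.3 CPM in Basal libraries (log2 fold change -0.86 ± 0.17, adjusted p = 0.00389). Kcnv1, another modulatory subunit, had 28.9 to 32.4 CPM in C108 libraries, against 40 to 53.6 CPM in Basal libraries (log2 fold change -0.62 ± 0.12, adjusted p = 0.00241). Kcnip3, a calcium-binding partner of A-type channels also known as DREAM, had 64.7 to 73.8 CPM in C108 libraries, against 84.6 to 100.2 CPM in Basal libraries (log2 fold change -0.43 ± 0.09, adjusted p = 0.00459). These 4 kept their call without each library in turn, but Kcnf1 was not called under 1 of the 20 alternatives (log2 fold change -0.55 and adjusted p = 0.118 in the thalamus and neocortex fit) and Kcnip3 under 2 (log2 fold change -0.28 and adjusted p = 0.145 in the thalamus and neocortex fit). Adcy8, a calcium-stimulated adenylyl cyclase named after its values were seen, fell with 10.9 to 17.6 CPM in C108 libraries, against 22.5 to 28.1 CPM in Basal libraries (log2 fold change -0.78 ± 0.12, adjusted p = 0.000217). Lrrc8c, a subunit of volume-regulated anion channels, rose with 49.4, 51.9, 51.3, 42.5 and 50.7 CPM in C108 libraries, against 28.6, 37.4, 24.1 and 24.4 CPM in Basal libraries (log2 fold change 0.78 ± 0.10, adjusted p = 3.89e-05), and the groups did not overlap.

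No member of the glutamate receptor list (33 tested) or the GABA receptor list (14 tested) was called by edgeR's quasi-likelihood test, against 6.04% of all genes. At an unadjusted p under 0.05 there were 6 glutamate and 3 GABA receptor genes. On limma-voom none of either list was called, and DESeq2 called 1 glutamate receptor gene and no GABA receptor gene. With the 2 groups alone in the fit, 1 glutamate and 2 GABA receptor genes were called.

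Of 39 tested immediate early genes, 3 rose (7.69%, near the 6.04% of all genes). The count was 1 without Basal 1, 5 without Basal 9, 0 in the thalamus and neocortex fit, 0 in the endothelial and meningeal fit and 0 without both C108 39 and Basal 1. The 3 were Dusp5, Gadd45g and Tiparp, and Dusp5 is also counted among the MAP kinase feedback genes. Gadd45g, a stress sensor linked to DNA demethylation, had 11.3 to 16.4 CPM in C108 libraries, against 6.96 to 10.4 CPM in Basal libraries (log2 fold change 0.79 ± 0.18, adjusted p = 0.0105, and 0.0618 without Basal 1). Fos had 4.54, 7.61, 13.1, 8.57 and 5.64 CPM in C108 libraries, against 5.12, 9.64, 3.66 and 4.73 CPM in Basal libraries and did not pass (log2 fold change 0.45 ± 0.41, adjusted p = 0.542). Arc, a regulator of synaptic strength, had 73.2 to 184 CPM in C108 libraries, against 81.3 to 99.05 CPM in Basal libraries (log2 fold change 0.35 ± 0.34, adjusted p = 0.572). Npas4 had 3.01 to 9.33 CPM in C108 libraries, against 3.33 to 5.84 CPM in Basal libraries (log2 fold change 0.31 ± 0.39, adjusted p = 0.677) and Homer1 had 126 to 145 CPM in C108 libraries, against 118.5 to 162 CPM in Basal libraries (log2 fold change -0.02 ± 0.11, adjusted p = 0.933). C108 26 was the highest C108 library for Fos, Arc and Npas4. Of 32 later activity genes, none rose and 4 fell (12.5%, against 6.04% of all genes called and 3.24% called lower). The count was 1 without Basal 1, Basal 14, Basal 27 or C108 39, 2 without C108 26 or C108 34, 2 in the thalamus and neocortex fit, 2 in the endothelial and meningeal fit and 1 without both C108 39 and Basal 1. Kcna4 and Kcnj4, among the 4 that fell, are also counted among the potassium channel genes above. Bdnf, the neurotrophin, fell with 39.6, 56.8, 47.2, 56.1 and 49.3 CPM in C108 libraries, against 74.02, 60.9, 70.8 and 65.3 CPM in Basal libraries (log2 fold change -0.44 ± 0.13, adjusted p = 0.0372). The groups did not overlap, but the adjusted p was 0.144 without Basal 1, 0.103 without Basal 14, 0.0572 without Basal 27, 0.0677 without C108 8, 0.0882 without C108 26 and 0.0806 without C108 39. Gadd45g was not called under 5 of the 20 alternatives (log2 fold change 0.60 and adjusted p = 0.159 in the endothelial and meningeal fit) and Bdnf under 8 (log2 fold change -0.39 and adjusted p = 0.253 without both C108 39 and Basal 1).

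**Figure D3:**
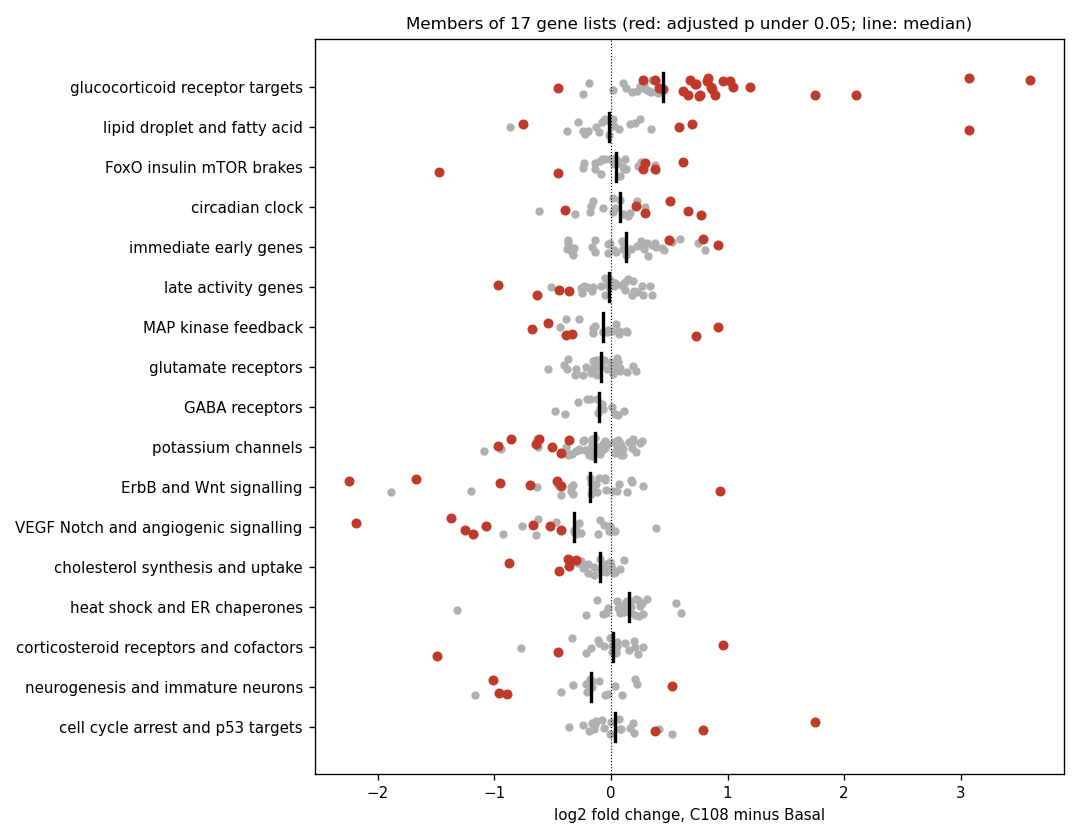
Each row plots the log2 fold change (C108 minus Basal) of the tested members of 1 of 17 gene lists, in red where the adjusted p was under 0.05, with a black line at the list's median. The glucocorticoid receptor targets hold 25 red points and sit to the right of 0, and the VEGF, Notch and angiogenic list sits to the left with 8.

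Clock genes gave a mixed picture. Of 21 tested members 5 rose (Nr1d1, Bhlhe40, Ciart, Tef and Nr1d2) and 1 fell (Arntl), with 28.6% called, against 6.04% of all genes. The count was 2 without Basal 1 or Basal 14, 3 without Basal 27 or C108 8, 4 without C108 39, 1 in the thalamus and neocortex fit, 3 in the endothelial and meningeal fit and 1 without both C108 39 and Basal 1. Bhlhe40, a repressor of clock-driven transcription, had 128, 121, 174, 140.0 and 144 CPM in C108 libraries, against 80.6, 91.5, 82.7 and 102 CPM in Basal libraries. The groups did not overlap, and the log2 fold change was 0.66 ± 0.13 (adjusted p = 0.00235). Nr1d1, the repressor REV-ERBα, had 71.8, 70.1, 79.7, 84.3 and 74.8 CPM in C108 libraries, against 53.9, 49.3, 54.1 and 57.2 CPM in Basal libraries (log2 fold change 0.51 ± 0.12, adjusted p = 0.0103), also without overlap. Arntl, the clock activator BMAL1, had 29.8, 33.9, 39.7, 39.4 and 37.4 CPM in C108 libraries, against 48.2, 42.7, 48.2 and 50.8 CPM in Basal libraries (log2 fold change -0.40 ± 0.11, adjusted p = 0.0263). The groups were separate, and the adjusted p was 0.0875 without Basal 1, 0.0648 without Basal 14, 0.0728 without Basal 27 and 0.0505 without C108 8. Ciart, a repressor of the CLOCK and BMAL1 complex, had 4.97 to 7.98 CPM in C108 libraries, against 3.29 to 4.63 CPM in Basal libraries (log2 fold change 0.78 ± 0.18, adjusted p = 0.0108, and 0.0523 without Basal 1 and 0.0565 without Basal 14). Bhlhe40 was not called under 1 of the 20 alternatives (log2 fold change 0.45 and adjusted p = 0.0745 in the endothelial and meningeal fit), Nr1d1 under 4 (log2 fold change 0.37 and adjusted p = 0.182 in the thalamus and neocortex fit), Arntl under 6 (log2 fold change -0.40 and adjusted p = 0.142 without both C108 39 and Basal 1) and Ciart under 6 (log2 fold change 0.64 and adjusted p = 0.145 without both C108 39 and Basal 1). Whether the groups were dissected at the same time of day is not given, and its part in these values was not tested.

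The E-box CACGTG, which CLOCK and BMAL1 bind, was searched in the same promoter windows and reads the same on both strands. It stood in 2187 of 27025 genes with a window (8.09%) and in 1327 of 11798 tested genes (11.2%). Among called genes with a window, it stood in 57 of 381 called higher (15%) and 42 of 382 called lower (11%). Of tested clock genes with a window, 5 of 18 had it (27.8%): Ciart and Tef, which rose, and Bhlhe41, Cry1 and Per1, which were not called. One E-box of Ciart is shown for its clock role, with the motif in capitals, at chr3:95882315-95882368 (GRCm38.p6, - strand), 116 bases before the start.
Ciart: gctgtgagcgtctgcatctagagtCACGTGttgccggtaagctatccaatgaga

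Genes of blood vessel signalling fell where they changed, and vessel markers, in part the same genes, were lower too. Among the called signalling genes, Kdr, Tie1 and Tek are also on the endothelial marker list, and Pdgfrb is on the pericyte list. Of 27 tested genes of VEGF, Notch and angiogenic signalling none rose and 8 fell (29.6%, against 6.04% of all genes called and 3.24% called lower), with a median log2 fold change of -0.32. The count was 3 without Basal 1, 5 without Basal 14, C108 26 or C108 39, 12 without C108 8, 2 in the thalamus and neocortex fit, 3 in the endothelial and meningeal fit and 2 without both C108 39 and Basal 1. Kdr, the main VEGF receptor of endothelial cells, had 2.08, 3.01, 1.29, 2.49 and 1.27 CPM in C108 libraries, against 12.6, 4.82, 8.99 and 10.5 CPM in Basal libraries. Every Basal library was above every C108 library, and the log2 fold change was -2.19 ± 0.33 (adjusted p = 0.000258). Pdgfrb, the receptor that pericytes carry, had 8.65, 8.27, 7.01, 8.57 and 5.95 CPM in C108 libraries, against 17.5, 13.3, 16.4 and 17.5 CPM in Basal libraries (log2 fold change -1.07 ± 0.14, adjusted p = 4.84e-05). Vegfa, the ligand, had 20.8 to 25.1 CPM in C108 libraries, against 29.1 to 35.3 CPM in Basal libraries (log2 fold change -0.43 ± 0.10, adjusted p = 0.0122). All 3 kept their call without each library in turn, but Vegfa was not called under 4 of the 20 alternatives (log2 fold change -0.26 and adjusted p = 0.285 in the endothelial and meningeal fit). In that fit Kdr and Pdgfrb were still called, with log2 fold changes of -1.31 for Kdr and -0.70 for Pdgfrb. Kdr is itself a marker in the endothelial score, so its change shrinks there by construction.

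Of 23 endothelial markers, 7 fell and 1 (Mfsd2a) rose (34.8% called, against 6.04% of all genes), with a median log2 fold change of -0.75. The count was 3 without Basal 1, 5 without Basal 14, C108 26 or C108 39, 14 without C108 8, 2 in the thalamus and neocortex fit, 4 in the endothelial and meningeal fit and 2 without both C108 39 and Basal 1. Cldn5, a tight junction protein of brain endothelium, had 4.54, 5.58, 4.95, 5.17 and 1.47 CPM in C108 libraries, against 15.9, 6.91, 15.6 and 15.5 CPM in Basal libraries (log2 fold change -1.64 ± 0.34, adjusted p = 0.00573). C108 39 was far below the other C108 libraries and Basal 9 far below the other Basal libraries. Cldn5 was not called under 4 of the 20 alternatives (log2 fold change -0.67 and adjusted p = 0.208 in the endothelial and meningeal fit). The endothelial markers, Cldn5 among them, make up the endothelial score held in that fit. The endothelial score was -1.04 to 0.30 in C108 libraries, against 0.15 to 0.66 in Basal libraries, so the groups overlapped in C108 8. Of 13 pericyte and smooth muscle markers 3 fell (23.1%, against 6.04% of all genes called and 3.24% called lower). The count was 2 without Basal 1, Basal 14, Basal 27 or C108 39, 5 without Basal 9 or C108 8, 2 in the thalamus and neocortex fit, 2 in the endothelial and meningeal fit and 2 without both C108 39 and Basal 1. Among the 3 was Mcam, with 15.7 to 19.5 CPM in C108 libraries, against 27.1 to 33.8 CPM in Basal libraries (log2 fold change -0.85 ± 0.13, adjusted p = 0.000258), and the score was -0.71 to 0.09 in C108, against 0.14 to 0.67 in Basal. In bulk tissue, fewer vascular cells and less RNA per cell cannot be told apart, and the part of vessel content in the falls was not tested.

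Oligodendrocyte genes were lower in part. Of 22 myelinating oligodendrocyte markers none rose and 5 fell (22.7%, against 6.04% of all genes called and 3.24% called lower), with a median log2 fold change of -0.43. The count was 3 without Basal 1, Basal 14, C108 34 or C108 39, 9 without C108 21, 3 in the thalamus and neocortex fit, 2 in the endothelial and meningeal fit and 2 without both C108 39 and Basal 1. Opalin, a membrane protein of myelinating cells, had 18.6, 24.6, 20.5, 15.7 and 16.9 CPM in C108 libraries, against 40.7, 28.2, 33.7 and 35.8 CPM in Basal libraries (log2 fold change -0.85 ± 0.15, adjusted p = 0.00129). Gpr37 had 67.5 to 86.2 CPM in C108 libraries, against 93.7 to 121 CPM in Basal libraries (log2 fold change -0.53 ± 0.11, adjusted p = 0.00411). Neither overlapped between the groups. Gjb1, connexin 32 of oligodendrocytes, singled out after its values were seen, had 6.76 to 12.3 CPM in C108 libraries, against 12.9 to 22.8 CPM in Basal libraries (log2 fold change -1.05 ± 0.21, adjusted p = 0.00307). Gpr37 was not called under 2 of the 20 alternatives (log2 fold change -0.47 and adjusted p = 0.0736 without both C108 39 and Basal 1) and Gjb1 under 2 (log2 fold change -0.84 and adjusted p = 0.0767 without both C108 39 and Basal 1). The log2 fold change of Gjb1 was -0.61 in the endothelial and meningeal fit (adjusted p = 0.0681). The markers' score was -0.46 to 0.28 in C108 libraries, against 0.14 to 0.50 in Basal libraries, with C108 21 within the Basal range. The part of oligodendrocyte content in these falls was not tested.

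Of 20 tested genes of neurogenesis and immature neurons, 3 fell, among them Sox2 and Nes, and 1 rose (Neurod2), with 20% called, against 6.04% of all genes. The other 16 did not pass. The count was 1 in the thalamus and neocortex fit, 0 in the endothelial and meningeal fit and 0 without both C108 39 and Basal 1. Sox2, a stem cell transcription factor, had 10.6, 14.8, 13.7, 13.8 and 10.1 CPM in C108 libraries, against 31.4, 19.8, 29.2 and 17.7 CPM in Basal libraries (log2 fold change -0.96 ± 0.18, adjusted p = 0.00178), without overlap. Sox2 lies within the noncoding gene Sox2ot, and how far transcripts of Sox2ot enter its count was not tested. Nes, which encodes the filament protein nestin of progenitors and of vessels, had 2.22 to 4.77 CPM in C108 libraries, against 3.84 to 9.46 CPM in Basal libraries (log2 fold change -1.01 ± 0.23, adjusted p = 0.00911) and overlapped through Basal 9. Sox2 was not called under 2 of the 20 alternatives (log2 fold change -0.60 and adjusted p = 0.0874 in the endothelial and meningeal fit) and Nes under 5 (log2 fold change -0.47 and adjusted p = 0.33 in the endothelial and meningeal fit). Insc, an adaptor for the orientation of dividing progenitors named after its values were seen, had 1.42, 2.19, 2.84, 2.23 and 1.73 CPM in C108 libraries, against 5.89, 5.15, 5.43 and 5.40 CPM in Basal libraries (log2 fold change -1.39 ± 0.23, adjusted p = 0.000725). The Basal libraries were nearly level and all above the C108 libraries.

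Marker scores of tissue next to the hippocampus were lower in most C108 libraries. No marker of meninges and fibroblasts (15 tested) or thalamus (17 tested) passed the test, and the median log2 fold change was -0.95 for the meninges list and -0.78 for the thalamus list. At an unadjusted p under 0.05 there were 8 meninges and 3 thalamus markers. DESeq2 called 2 meninges and 1 thalamus markers, and the fit of the 2 groups alone 5 and 4. The thalamus score was -0.80 to -0.45 in C108 libraries, against -0.35 to 0.43 in Basal libraries, without overlap. The meningeal score was -0.91 to -0.18 in C108 libraries, against -0.30 to 0.64 in Basal libraries, with Basal 9 among the C108 libraries. The neocortex score was -0.247 to 0.0569 in C108 libraries, against 0.135 to 0.368 in Basal libraries, without overlap, as for the thalamus score. Of 19 neocortex markers 3 fell (15.8%, against 6.04% of all genes called and 3.24% called lower). The count was 1 without Basal 1 or C108 26, 0 in the thalamus and neocortex fit, 2 in the endothelial and meningeal fit and 1 without both C108 39 and Basal 1. Ttr, the main product of the choroid plexus, had 7.88, 219.5, 33.6, 12.3 and 131 CPM in C108 libraries, against 210.4, 7.78, 233 and 50.99 CPM in Basal libraries and did not pass (log2 fold change -0.64 ± 1.51, adjusted p = 0.835). Its high libraries were C108 21 and 39 and Basal 1 and 14.

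**Figure D4:**
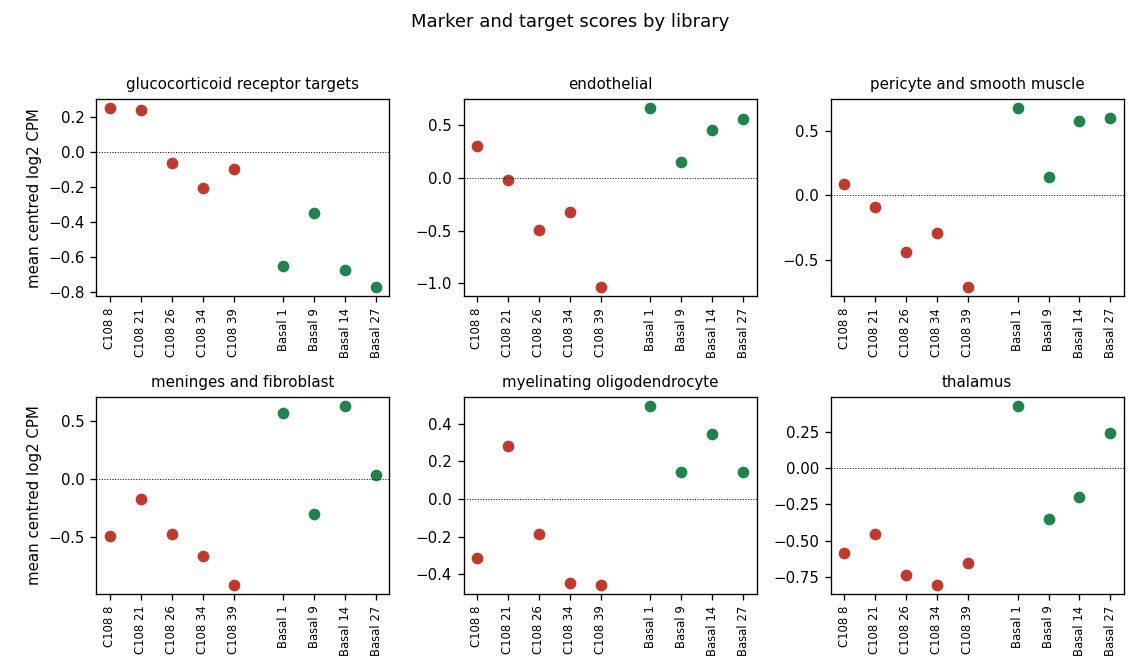
Each panel plots the mean centred log2 CPM of 1 list in each of the 5 C108 and 4 Basal libraries. Receptor targets are higher in every C108 library, at -0.20 to 0.25, than in any Basal library, at -0.77 to -0.35, while the endothelial and pericyte scores are lowest in C108 39.

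The other rises described were mostly of genes at a low level, apart from Spns2. Gm45187, a predicted gene, rose with 4.60, 5.36, 5.83, 4.46 and 6.10 CPM in C108 libraries, against 1.84, 2.69, 1.73 and 2.07 CPM in Basal libraries (log2 fold change 1.34 ± 0.16, adjusted p = 1.12e-05). Mlph, which links Rab27 vesicles to myosin, had 2.63 to 3.76 CPM in C108 libraries, against 1.07 to 1.37 CPM in Basal libraries (log2 fold change 1.36 ± 0.19, adjusted p = 8.13e-05). Tmem52 had 1.495 to 2.30 CPM in C108 libraries, against 0.241 to 0.658 CPM in Basal libraries (adjusted p = 0.000551), and Atp2c2, a calcium and manganese pump, had 1.52 to 3.17 CPM in C108 libraries, against 0.461 to 0.917 CPM in Basal libraries (log2 fold change 1.74 ± 0.35, adjusted p = 0.00386). Chrm5, a muscarinic receptor, had 6.51, 3.67, 3.09, 2.94 and 4.88 CPM in C108 libraries, against 1.33, 1.48, 1.57 and 1.88 CPM in Basal libraries (log2 fold change 1.42 ± 0.28, adjusted p = 0.00305). None of these 5 overlapped between the groups. Chrm5 was not called under 2 of the 20 alternatives (log2 fold change 1.14 and adjusted p = 0.0895 in the thalamus and neocortex fit) and Atp2c2 under 1 (log2 fold change 1.62 and adjusted p = 0.0542 without both C108 39 and Basal 1). Gm19439 had 12.2 to 24.96 CPM in C108 libraries, against 3.66 to 10.3 CPM in Basal libraries (log2 fold change 1.55 ± 0.27, adjusted p = 0.00116), and Plekhf1, an endosome protein, had 6.60 to 12.2 CPM in C108 libraries, against 2.49 to 6.47 CPM in Basal libraries (log2 fold change 1.21 ± 0.23, adjusted p = 0.00271), with Basal 9 the highest Basal library of both. Spns2, the exporter of sphingosine 1-phosphate, named after its values were seen, had 106 to 147 CPM in C108 libraries, against 71.02 to 98.8 CPM in Basal libraries (log2 fold change 0.56 ± 0.10, adjusted p = 0.00148).

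Among the largest falls, Cd180, a Toll-like receptor homologue of immune cells, had 0.712, 0.876, 0.619, 0.660 and 0.813 CPM in C108 libraries, against 3.84, 1.86, 3.71 and 3.28 CPM in Basal libraries (log2 fold change -2.10 ± 0.28, adjusted p = 5.34e-05). The groups did not overlap and the call was kept without each library. Other large falls were lost without 1 library. Ctxn3 had 0.438, 0.274, 0.412, 0.406 and 0.305 CPM in C108 libraries, against 8.14, 0.877, 0.914 and 0.965 CPM in Basal libraries (log2 fold change -2.87 ± 0.83, adjusted p = 0.0409). Basal 1 alone was high, and the adjusted p was 0.461 without Basal 1, 0.0701 without C108 21, 0.0827 without C108 26, 0.0761 without C108 34 and 0.1 without C108 39. Ctxn3 was not called under 13 of the 20 alternatives (log2 fold change -1.25 and adjusted p = 0.631 without both C108 39 and Basal 1). Prg4, a joint lubricant, had 0.274, 0.328, 0.206, 0.254 and 0.0508 CPM in C108 libraries, against 0.717, 0.548, 4.26 and 0.289 CPM in Basal libraries (log2 fold change -2.69 ± 0.61, adjusted p = 0.00911), where Basal 14 alone was high, and the adjusted p without it was 0.219. Prg4 was not called under 5 of the 18 alternatives (log2 fold change -1.20 and adjusted p = 0.219 without Basal 14).

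The other conditioned groups give levels to set beside those of C108. All comparisons with Basal share the same 4 Basal libraries. For the 41 receptor targets the median log2 fold change was 0.45 for C108 minus Basal, 0.86 for Vehicle minus Basal and -0.24 for C108 minus Vehicle. No member was called in C108 against Vehicle. With the SD over libraries, mean CPM of Fkbp5 was 131 ± 12.8 in C108, 130.2 ± 12.97 in Vehicle, 167 ± 9.89 in Cort, 114 ± 8.28 in RU486, 123 ± 15.9 in C118 and 67.5 ± 9.53 in Basal. All 5 conditioned groups were above Basal, and C108 minus Vehicle was 0.01 ± 0.09 (adjusted p = 0.956). Mean CPM of Plin4 was 10.1 ± 2.71 in C108, 15.1 ± 4.31 in Vehicle, 17.2 ± 5.58 in Cort, 8.48 ± 2.29 in RU486, 12.4 ± 3.53 in C118 and 1.22 ± 0.685 in Basal, and C108 minus Vehicle was -0.59 ± 0.28 (adjusted p = 0.277). Cdkn1a averaged, in CPM, 24.9 ± 12.1 in C108, 44.4 ± 5.72 in Vehicle, 54.9 ± 15.2 in Cort, 15.5 ± 4.46 in RU486, 20.6 ± 2.003 in C118 and 7.43 ± 2.88 in Basal. C108, RU486 and C118 were below Vehicle and Cort there, with a C108 minus Vehicle log2 fold change of -0.84 ± 0.29 that did not pass (adjusted p = 0.158). Mean CPM of Kcna4 was 23.6 ± 1.64 in C108, 22.7 ± 2.24 in Vehicle, 26.4 ± 3.03 in Cort, 22.8 ± 3.79 in RU486, 24.6 ± 2.99 in C118 and 46.1 ± 11.7 in Basal, and C108 minus Vehicle was 0.06 ± 0.14 (adjusted p = 0.854). Kcnf1 averaged, in CPM, 40.5 ± 5.28 in C108, 62.1 ± 23.9 in Vehicle, 50.1 ± 8.06 in Cort, 38.7 ± 5.66 in RU486, 41.6 ± 4.98 in C118 and 73.5 ± 11.2 in Basal, with C108 minus Vehicle at -0.62 ± 0.17 (adjusted p = 0.0987).

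In C108 against Vehicle 36 of 16735 genes were called (0.215%), 9 higher (0.0538%) and 27 lower (0.161%). Leaving out C108 8, C108 34, C108 39 or Vehicle 16 gave 0 calls with edgeR's quasi-likelihood test (1947 to 3509 genes at an unadjusted p under 0.05), C108 26 gave 1, C108 21 gave 102, Vehicle 29 gave 9, Vehicle 3 gave 119 and Vehicle 23 gave 656. The thalamus score was -0.80 to -0.45 in C108 libraries, against 1.29, 2.16, -0.41 and -0.25 in Vehicle 3, 16, 23 and 29. Of the genes described above, Bhlhe40 was called. Bhlhe40 had 128, 121, 174, 140.0 and 144 CPM in C108 libraries, against 79.5, 73.7, 112 and 103 CPM in Vehicle libraries. Every C108 library was above every Vehicle library, and the log2 fold change was 0.62 ± 0.13 (adjusted p = 0.0384). Its adjusted p was 0.284 without Vehicle 16, 0.0501 without Vehicle 3, 0.0562 without Vehicle 29, 0.0537 without C108 8, 0.112 without C108 26, 0.0978 without C108 34 and 0.0928 without C108 39. Across groups, mean CPM of Bhlhe40 was 141 ± 20.4 in C108, 92.1 ± 18.4 in Vehicle, 113 ± 19.8 in Cort, 124 ± 5.35 in RU486, 121 ± 14.9 in C118 and 89.3 ± 9.92 in Basal, and that of Nr1d1 was 76.1 ± 5.85 in C108, 57.7 ± 11.3 in Vehicle, 62.2 ± 9.69 in Cort, 79.3 ± 10.01 in RU486, 81.9 ± 9.26 in C118 and 53.6 ± 3.27 in Basal. Nr1d1 did not pass against Vehicle (log2 fold change 0.40 ± 0.12, adjusted p = 0.109).

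The 5 called genes with the smallest p against Vehicle were Zfp423, Unc13c, Efna5, Camk2d and Ehd1. Unc13c, which primes synaptic vesicles, had 8.65, 13.2, 8.15, 10.1 and 6.55 CPM in C108 libraries, against 17.04, 49.4, 12.6 and 54.3 CPM in Vehicle libraries (log2 fold change -1.84 ± 0.33, adjusted p = 0.0327). Vehicle 16 and 29 were above the other libraries of the 2 groups, and C108 21 overlapped with Vehicle 23. Zfp423, a zinc finger regulator of cerebellar progenitors among others, had 6.51, 6.68, 6.03, 7.56 and 5.84 CPM in C108 libraries, against 10.7, 12.8, 8.70 and 12.4 CPM in Vehicle libraries (log2 fold change -0.77 ± 0.14, adjusted p = 0.0327). Efna5, an axon guidance ligand, gave -1.17 ± 0.21 (adjusted p = 0.0327), Camk2d, a calcium-dependent kinase, gave -0.82 ± 0.14 (adjusted p = 0.0327), and Ehd1, an endosome recycling protein, gave 0.39 ± 0.07 (adjusted p = 0.0384). None of the 5 was called without Vehicle 16 (adjusted p = 0.222 for each). With the thalamus and neocortex scores in the fit none of the 36 calls was left, and 506 genes had an unadjusted p under 0.05. Against Cort and against RU486 no gene was called (0% each). There, 817 and 961 genes had an unadjusted p under 0.05, and DESeq2 called 5 against Cort and 0 against RU486.

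**Figure D5:**
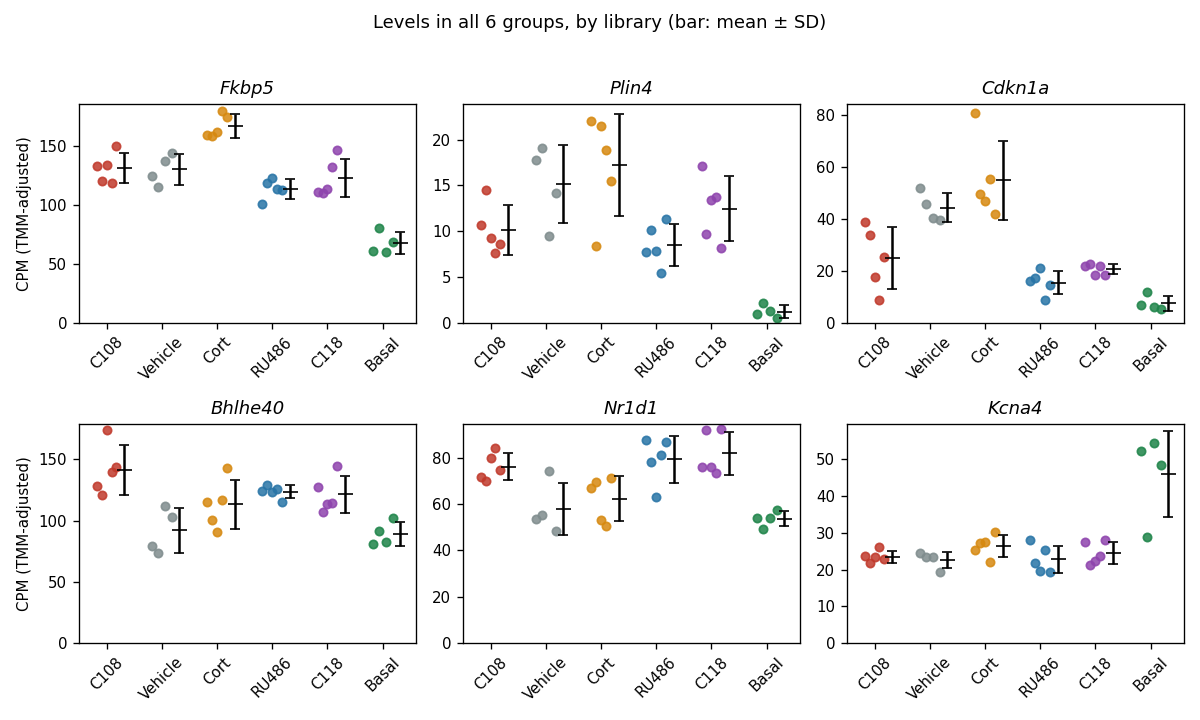
Each panel plots CPM on TMM-adjusted library sizes for 1 gene in the C108, Vehicle, Cort, RU486, C118 and Basal libraries, with a point for each library and a bar for the mean ± SD. Fkbp5 and Plin4 are above Basal in all 5 conditioned groups, Cdkn1a is highest in Cort, Bhlhe40 is highest in C108, and Kcna4 is highest in Basal.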

How the data were processed

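As deposited, the values are raw counts for Ensembl genes. The authors counted with HTSeq 0.6.1 on mm10 and used FastQC and MultiQC, per the submitters' processing notes. The libraries were stranded, 100 bp paired-end and run on DNBseq, per the labels' protocols. The sources used here name no aligner or annotation release and do not say whether counting used strand. Rows that name no gene (12.6% to 19.7% of reads) were dropped from 50686 genes and library sizes. All 28 libraries were fitted together in edgeR 4.0.16 under R 4.3.3 (TMM, filterByExpr with a minimum count of 10 and total of 15, robust quasi-likelihood test, two-sided, 22 residual degrees of freedom), with Benjamini-Hochberg adjustment over 16735 genes and a threshold of 0.05. The test was checked on simulated counts. CPM use TMM-adjusted sizes, errors of means are SDs, and the prior count of log2 CPM was 2. No 2 C108 libraries and no 2 Basal libraries had counts alike within sampling noise, and other pairs were not compared. Intervals are not given for single counts, since reads without molecular identifiers are not independent molecules.

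Alternatives were RLE normalization, no filter, at least 1 CPM in 9 libraries, sample number or marker scores as covariates, 2 groups alone, limma-voom (limma 3.58.1), DESeq2 1.42.0 and leaving out each library. Named genes were the 15 largest rises and 15 largest falls among called genes with at least 1 CPM in the higher group, the 10 smallest p, up to 6 genes per pathway list and 4 per marker list, a fixed set, and the 5 smallest p of the other comparisons. Genes without a symbol are not named, and some genes that the rule took in are not reported here. Members and lists were chosen with earlier results of these data known. Gene positions are GENCODE M21 (GRCm38).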

Additional observations from a re-analysis of the deposited data

Results flagged for a closer look

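Over 92 genes described, each tested in the 5 C108 and the 4 Basal libraries, 16 of 184 sets of libraries had 1 library apart from the rest by Dixon's criterion. Chance alone puts about 1 in 20 such sets apart. Basal 9 held 9 of the 16. It was the highest Basal library for Tsc22d3 (63.2 CPM), Errfi1 (70.3 CPM), Arrdc2 (15.9 CPM), Arl4d (21.6 CPM), Sgk1 (130 CPM), Dgat2 (148 CPM), Adipor2 (82.4 CPM) and Gm19439 (10.3 CPM), and the lowest for Cldn5 (6.91 CPM). Those 8 genes rose in C108 libraries and Cldn5 fell, so Basal 9 lay on the C108 side of the Basal libraries for each. Its receptor target score of -0.35 was the highest and its endothelial score of 0.15 the lowest of the Basal libraries.

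Among C108 libraries, C108 39 was the lowest for Cldn5 (1.47 CPM) and C108 34 for Lrrc8c (42.5 CPM), and C108 21 was the highest for Gm19439 (25 CPM). Among Basal libraries, Basal 1 was the highest for Ctxn3 (8.14 CPM), Basal 14 for Npas4 (5.84 CPM) and Prg4 (4.26 CPM), and Basal 27 for Ciart (4.63 CPM).

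The change from Basal differed between the C108 and Vehicle groups for 6 genes described, by the direct test of C108 minus Vehicle in edgeR. The log2 fold change was 0.62 for Bhlhe40 and 0.39 for Ehd1 (adjusted p = 0.0384 for both), and -0.77 for Zfp423, -1.84 for Unc13c, -1.17 for Efna5 and -0.82 for Camk2d (adjusted p = 0.0327 for each). Of the 6, only Bhlhe40 was also called in C108 against Basal, and none was called without Vehicle 16.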

How the results depend on the processing

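In C108 against Basal 1010 genes were called. The count was 1017 with RLE normalization, 973 with a stricter filter, 830 with the 2 groups alone, 1074 with limma-voom and 1343 with DESeq2. It was 621 with no filter, 636 with the sample number as a covariate, 166 with the thalamus and neocortex scores and, chosen after seeing the data, 200 with the endothelial and meningeal scores, 339 with the share of reads in no annotated gene and 139 without both C108 39 and Basal 1. Without 1 library the count was 292 to 1496. In C108 against Vehicle the 36 calls became 20 with no filter, 7 with the sample number, 0 with the thalamus and neocortex scores, 0 with the 2 groups alone, 0 with limma-voom, 294 with DESeq2 and 0 to 656 without 1 library. C108 against Cort gave 5 with DESeq2 and 0 otherwise, and C108 against RU486 gave 0 under each setting run for it. The settings chosen after seeing the data were run for C108 against Basal only. The causes were not tested.

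Of 147 called genes among the 198 that the naming rule or a later choice took in, 138 were tested under all 20 alternatives, and 49 of them kept their call under each. Another, Cd180, kept it under the 19 that tested it. The other 97 lost it under at least 1, and none of the 198 reversed where tested. The 2-group fit held 35.5% higher genes among its calls, against 46.2%. With 5 and 4 libraries, small changes of low genes cannot be told from the spread. No paired analysis was possible because the numbers in the titles are unique to each library.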

Other observations

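Of 33 tested heat shock and chaperone genes none was called in C108 against Basal, by edgeR, limma-voom or DESeq2, 3 had an unadjusted p under 0.05 with edgeR, and with the 2 groups alone in the fit 2 were called. Lcn2, an iron-binding protein of inflammation and a receptor target, had 0.102 to 0.821 CPM in C108 libraries, against 0 to 0.0965 CPM in Basal libraries, close to the lowest level that counts at this depth can show.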
